A study of Rattus norvegicus with 8 samples.

Results

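The Wnt module described here holds 40 genes of the Wnt pathway: ligands, the enzyme that acylates them, receptors and co-receptors, secreted antagonists, and the cytoplasmic and nuclear proteins that carry the signal. Members were listed by gene symbol and not by a threshold on their values, but earlier results of these data were known by then. Every probe set annotated to a member symbol alone was taken from the deposited table. A probe set of their own was found for 34 of the 40 genes, 62 probe sets in all, out of 31042 on the array. Of these genes, 16 had 1 probe set and 18 had several, and a gene with several was represented by the probe set with the highest mean over the 8 arrays. Fzd7, Fzd9, Ror1, Ror2, Dkk1 and Dkk4 carry no such annotation and were not analysed here. The secreted antagonists (8 measured) were kept apart from the other members (26 measured). Dkk3 was counted among the antagonists throughout, although it is not generally found to block Wnt signals.

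The study compared muscle of the cardiac chambers by setting 4 pools of atrial tissue against 4 pools of ventricular tissue. Both kinds of tissue came from 13 normal, untreated male Sprague-Dawley rats weighing 225 to 275 g. The atrial pools held left atrial appendage and the ventricular pools left ventricular free wall, where the side rests on the methods of the study and not on the sample labels. Each pool combined tissue of several animals and was hybridized to 1 Affymetrix rat array, so that a replicate is a pool and the error given is the spread between pools. Which animals entered which pool is not given in the sources used here, and pools were whole tissue that contains muscle, vascular, connective and surface cells.

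Wnt proteins are secreted, lipid-modified ligands that bind Frizzled receptors together with the co-receptors Lrp5 and Lrp6. In the canonical branch, receptor engagement recruits Dishevelled and inactivates a complex of Axin, Apc and Gsk3b that otherwise marks β-catenin (Ctnnb1) for degradation, and stabilized β-catenin then works with transcription factors of the Tcf and Lef family. Secreted frizzled-related proteins (Sfrp) and Wif1 bind Wnt ligands outside the cell, whereas proteins of the Dickkopf family such as Dkk2 act on the co-receptors. In the heart the pathway is known for its part in development, and in the adult for its activity in fibroblasts and in tissue repair.

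Values are log2 signal intensities, so that a difference of 1 is a doubling. The values ran from 1.9 to 13.77, with array medians of 4.8 to 4.81. Correlation between arrays was 0.99 to 0.996 among the atrial pools, 0.996 among the ventricular pools and 0.969 to 0.974 across the tissues. The typical spread was small, with a median SD between pools of 0.117 in atria and 0.0986 in ventricles. All 6 markers of atrial muscle were higher in the atrial pools and all 6 of ventricular muscle were lower, as the tissue labels say. Ventricular muscle markers averaged 7.51 and 7.86 in atrial replicates 1 and 4, against 6.02 and 6.39 in atrial replicates 2 and 3. These pairs of atrial pools stood apart mainly through Myl2 (10.48 and 11.30, against 4.32 and 6.82) and Myl3 (9.93 and 10.43, against 8.06 and 7.75). Hey2 and Fhl2 differed less between the pairs, and Irx4 and Myh7 were not raised in atrial replicate 1. Means below 4 are treated here as lying at the low end of the array, where 37.8% of all probe sets were found. A difference is a lower bound where 1 tissue lies there and has no settled size where both do.

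Differences are given as atrium minus ventricle and were tested with limma, which fits a linear model to each probe set and steadies its variance with that of the others, with adjustment over all 31042 probe sets. A gene is called higher or lower at an adjusted p under 0.05. The thresholds of the study are also used, namely an adjusted p under 0.0001 with a fold of at least 1.8. The study set its threshold on the FDR of SAM, a permutation method for arrays, whereas the p used here is that of limma, and the result by SAM is given where it falls on the other side.

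Of the 34 measured members, the atria had 11 at a higher level and 4 at a lower one, while 19 did not pass. This is 32.4% higher and 11.8% lower, against 22.5% higher and 22.5% lower among all 14217 genes with a probe set of their own. The median difference was -0.01 over the members and -0.04 over all genes, close to each other. The values of the atrial and ventricular pools did not overlap in 20 of the 34 members, against 44.1% of all genes. At the thresholds of the study 3 members were higher and 1 was lower, where 3.37% of all genes were higher and 2.53% were lower. The antagonists and the remaining members differed in their counts. Among the 8 antagonists 5 were higher and 0 lower, with a median difference of 1.35, whereas among the 26 other members 6 were higher and 4 lower, with a median of -0.04. With the dimmest probe set of each gene in place of the brightest, the antagonists called higher were 3 instead of 5. The 0 lower calls by limma compare with 0 at an unadjusted p under 0.05 and 1 (Dkk2) by SAM, the test used in the study, here at an FDR of 5%. Since tissue was measured in bulk, fewer cells of a type and less RNA per cell cannot be told apart in any of these values.

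**Figure D1:**
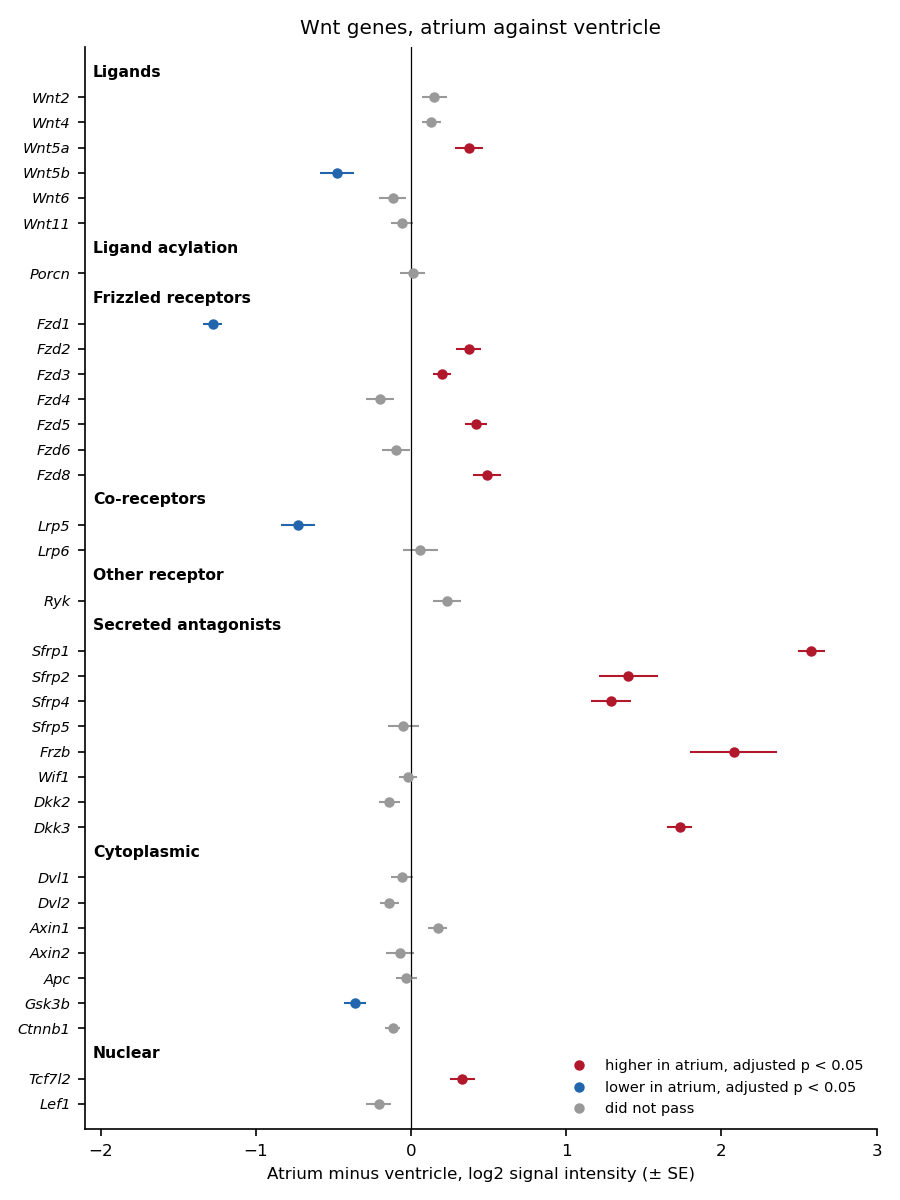
Atrium minus ventricle difference in log2 signal intensity for each of the 34 measured members, grouped by role, with bars for the standard error of the limma model. The 5 secreted antagonists called higher (red) lie between 1.29 and 2.58, while the remaining members lie between -1.28 and 0.49.

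Among the measured members, the 5 largest positive differences were those of secreted antagonists. Sfrp1, a secreted frizzled-related protein that binds Wnt ligands, had a log2 intensity of 8.02, 7.96, 7.94 and 7.75 in the atrial pools, against 5.53, 5.18, 5.31 and 5.32 in the ventricular pools. Even the lowest atrial pool was far above the highest ventricular pool. The means were 7.92 ± 0.12 in atria and 5.33 ± 0.15 in ventricles (SD, n = 4 pools each), a difference of 2.58 ± 0.09 (SE), or 6.0 fold (limma, adjusted p = 1.1e-08). Ordered from the highest difference down, Sfrp1 was at place 68 of 14217 genes. Its other probe sets gave differences of 2.56 (limma, adjusted p = 6.8e-08) and, as a lower bound, 2.25 (limma, adjusted p = 4.0e-07).

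Frzb, a second frizzled-related protein that binds Wnt ligands, was also higher in the atria but varied more between pools. It reached 8.03, 6.94, 6.69 and 7.20 in the atrial pools, against 5.49, 4.78, 5.54 and 4.73 in the ventricular pools. No atrial pool fell within the ventricular range, and atrial replicate 1 stood above the other atrial pools. The means were 7.21 ± 0.58 in atria and 5.14 ± 0.44 in ventricles (SD, n = 4 pools each), a difference of 2.08 ± 0.28 (SE) or 4.22 fold (limma, adjusted p = 1.8e-04). This p from limma is above 0.0001, but with SAM at the FDR of the study Frzb passed both thresholds. The SD of Frzb was larger than that of 99.2% of all genes in the atria and of 99.7% in the ventricles. Its other probe set read 7.44, 6.21, 6.30 and 6.69 in the atrial pools, against 4.77, 4.45, 5.20 and 4.50 in the ventricular pools. Both probe sets placed atrial replicate 1 highest among the atria and ventricular replicate 3 highest among the ventricles, and the second gave a difference of 1.93 (limma, adjusted p = 1.5e-04).

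Sfrp2 showed the same kind of spread. This frizzled-related protein, which is made by fibroblasts and other mesenchymal cells, read 6.42, 5.70, 5.69 and 6.30 in the atrial pools, against 4.41, 4.54, 5.08 and 4.47 in the ventricular pools. Atrial replicates 1 and 4 were the high atrial pools, ventricular replicate 3 was the high ventricular pool, and the tissues did not overlap. The difference was 1.40 ± 0.19 (SE) or 2.64 fold (limma, adjusted p = 2.1e-04), between means of 6.03 ± 0.39 in atria and 4.62 ± 0.31 in ventricles (SD, n = 4 pools each). As for Frzb, the p from limma is above 0.0001, while with SAM at the FDR of the study Sfrp2 passed both thresholds. A second probe set gave 0.87 (limma, adjusted p = 0.0018). The SD was larger than that of 97.8% of genes in the atria and 98.9% in the ventricles.

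Sfrp4, a further frizzled-related protein, was higher in the atria as well. Its values were 5.01, 5.50, 5.15 and 5.51 in the atrial pools, against 4.14, 3.72, 3.98 and 4.17 in the ventricular pools. The tissues were separated, with 2 ventricular pools under the low end. The means were 5.29 ± 0.25 in atria and 4.00 ± 0.21 in ventricles (SD, n = 4 pools each), and the difference of 1.29 ± 0.13 (SE), or 2.44 fold, passed the thresholds of the study (limma, adjusted p = 2.8e-05). Its p from limma was above 0.0001, while it remained called, without atrial replicate 2 or 3 or ventricular replicate 1, 2 or 3 (limma, adjusted p = 1.1e-04 to 1.9e-04) and without atrial replicates 1 and 4 together (limma, adjusted p = 1.2e-04). A second Sfrp4 probe set lay under the low end in both tissues, at 2.96 in atria and 2.85 in ventricles, and did not pass (0.11, limma, adjusted p = 0.32).

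Dkk3, a secreted glycoprotein related to the Dickkopf inhibitors that is not generally found to block Wnt signals as those inhibitors do, read 10.27, 10.50, 10.42 and 10.19 in the atrial pools, against 8.66, 8.48, 8.68 and 8.63 in the ventricular pools. Each tissue formed a tight group. The difference was 1.73 ± 0.08 (SE) or 3.32 fold (limma, adjusted p = 1.0e-07). Of its 3 other probe sets, those above the low end gave 1.96 and 1.41, both past the thresholds of the study. The fourth probe set lay under the low end in both tissues and showed no separation (0.01, limma, adjusted p = 0.91).

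The remaining antagonists did not pass. Sfrp5, another frizzled-related protein, averaged 4.17 ± 0.21 in atria and 4.22 ± 0.09 in ventricles (SD, n = 4 pools each), with overlapping pools and a difference of -0.05 (limma, adjusted p = 0.72). Wif1, a secreted Wnt-binding protein (-0.02, limma, adjusted p = 0.78), and Dkk2, a Dickkopf protein that acts on the co-receptors (-0.14, limma, adjusted p = 0.13), were under the low end in both tissues, so that their differences have no settled size.

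**Figure D2:**
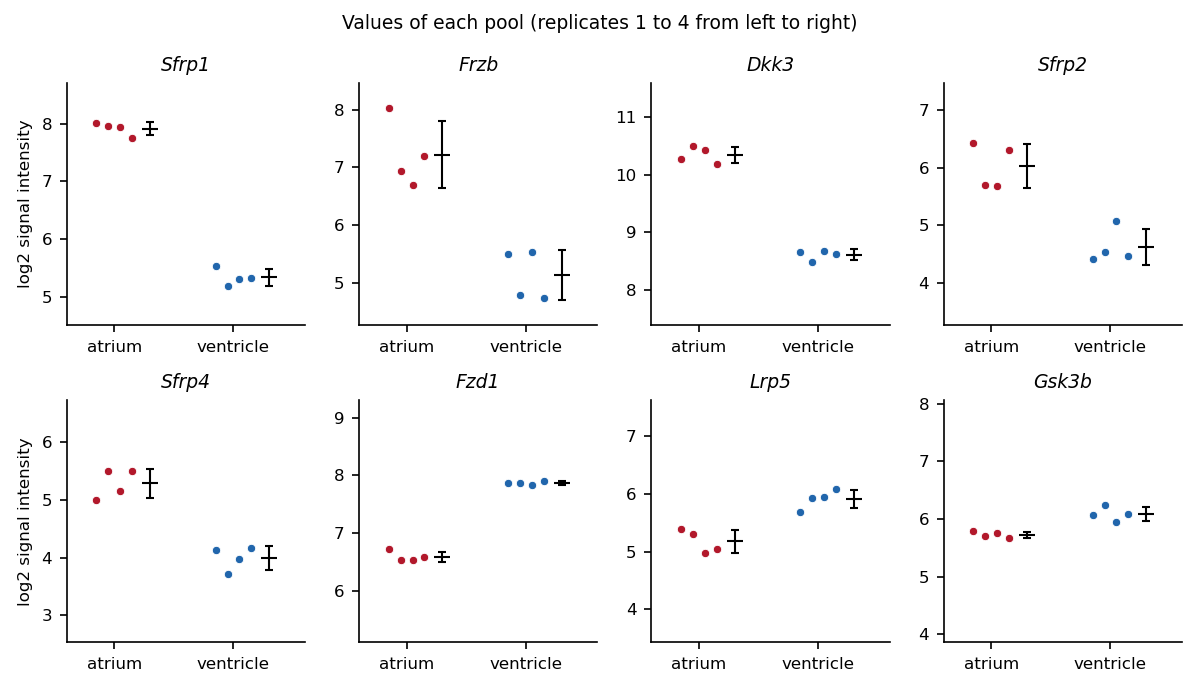
Log2 signal intensity of each pool (points, replicates 1 to 4 from left to right) with mean and SD (black) in atria and ventricles for 8 genes of the module, with panels of equal span. Atrial replicate 1 is the highest atrial pool for Frzb (8.03) and Sfrp2 (6.42), whereas the pools of Fzd1 lie close together in both tissues.

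All 5 antagonists were still called higher with any 1 array left out. Over these omissions the difference ran from 2.53 to 2.65 for Sfrp1, 1.81 to 2.26 for Frzb, 1.68 to 1.79 for Dkk3, 1.27 to 1.55 for Sfrp2 and 1.20 to 1.38 for Sfrp4. Atrial replicates 1 and 4 were also left out together, a choice made after the values were seen. Frzb then differed by 1.68 (limma, adjusted p = 5.8e-04) and Sfrp2 by 1.07 (limma, adjusted p = 0.0011), while Sfrp1 differed by 2.62 (limma, adjusted p = 2.7e-07).

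Several lists of cell type markers held mostly genes that were higher in the atria, as were 22.5% of all genes. The 7 measured mesothelial markers, genes of the cell layer covering the heart, averaged 6.24 to 7.09 in the atrial pools, against 4.17 to 4.30 in the ventricular pools, with 5 higher and 2 (Wt1 and Calb2) lower in the atria. Their highest atrial value, 7.09, was in replicate 1, the pool in which Frzb was also highest, and their lowest, 6.24, was in replicate 4, where Frzb (7.20) was second highest and Sfrp2 (6.30) was high as well. Sfrp1 was likewise highest in replicate 1 (8.02) and lowest in replicate 4 (7.75). Sfrp4 was highest in replicate 4 (5.51), and Dkk3 was highest in replicate 2 (10.50) and lowest in replicate 4 (10.19). In the ventricles, Krt19, Krt8 and Krt18 of this list were under the low end, and Calb2 was under it in both tissues, so that its difference has no settled size.

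Fibroblast markers differed less in size. Of 8, 7 were higher, and their mean was 10.37 to 10.51 in the atrial pools, against 10.04 to 10.20 in the ventricular pools. Of 4 genes listed as endocardial 3 were higher, with a mean of 7.93 to 8.15 in atria, against 6.25 to 6.64 in ventricles. The higher ones were Npr3 (2.59), Plvap (2.53) and Vwf (0.93), while Postn (0.14) did not pass. Adipocyte markers, 4 of 6 higher, averaged 5.72 to 8.20 in the atrial pools, against 4.87 to 5.04 in the ventricular pools, with atrial replicate 4 the highest and replicate 1 the lowest. Of this list, Adipoq, Plin1 and Cidec were under the low end in the ventricles, so that their differences are lower bounds. Fabp4 (-0.19, limma, adjusted p = 0.49) did not pass, nor did Lep (0.04, limma, adjusted p = 0.89), which was under the low end in both tissues.

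Other lists went the opposite way or were mixed. The endothelial list, which leaves out Plvap and Vwf, was lower in 6 of 7 genes. It averaged 7.96 to 8.0 in the atria, against 8.63 to 8.85 in the ventricles. Mural markers, of pericytes and vascular smooth muscle, were lower in 8 of 8, at 6.67 to 6.79 in atria against 7.57 to 7.61 in ventricles. Neural markers were higher in 3 and lower in 1 of 8, immune markers higher in 1 and lower in 3 of 6, and muscle genes shared by both chambers higher in 1 and lower in 3 of 5. The part of these cell types in the differences of the Wnt genes was not tested.

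**Figure D3:**
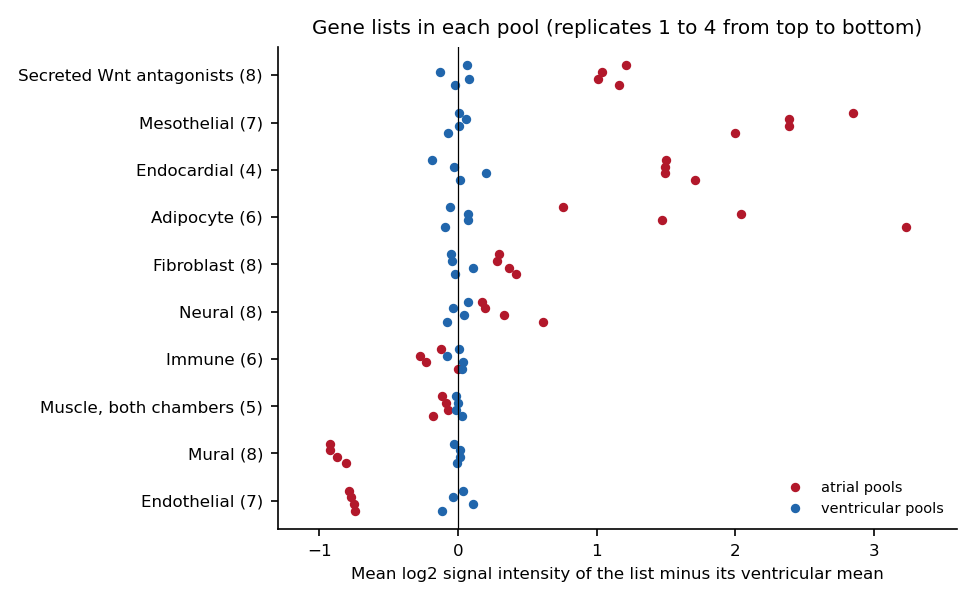
Mean log2 signal intensity of the secreted antagonists and of cell type marker lists in each pool, minus the ventricular mean of the list, with the number of measured genes in brackets. The antagonist mean is 5.76 to 5.96 in the atrial pools, against 4.62 to 4.83 in the ventricular pools, and adipocyte markers run from 5.72 to 8.20 and mesothelial markers from 6.24 to 7.09 among the atrial pools.

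Among the Frizzled receptors, Fzd1 was the one with a large difference and it was lower in the atria. Fzd1 read 6.72, 6.53, 6.53 and 6.58 in the atrial pools, against 7.87, 7.87, 7.84 and 7.91 in the ventricular pools. Every atrial pool lay below every ventricular pool, and the spread within a tissue was narrow. The means were 6.59 ± 0.09 in atria and 7.87 ± 0.03 in ventricles (SD, n = 4 pools each), a difference of -1.28 ± 0.06 (SE), or 2.44 fold lower (limma, adjusted p = 1.4e-07). From the lowest difference up, Fzd1 was at place 145 of 14217 genes, and it was the one member lower at the thresholds of the study. Its difference ran from -1.33 to -1.26 with any 1 array left out. The annotation gives Fzd1 a single probe set, so no second probe set bears on this value.

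The other Frizzled receptors differed by at most 0.49. Fzd8 read 6.99, 6.95, 6.91 and 6.67 in the atrial pools, against 6.39, 6.56, 6.37 and 6.26 in the ventricular pools. It was higher in the atria by 0.49 ± 0.09 (SE), or 1.40 fold (limma, adjusted p = 0.0014), without overlap. Fzd2 was higher by 0.37 (limma, adjusted p = 0.0052), with all atrial pools between 5.88 and 6.14 and all ventricular pools between 5.43 and 5.71.

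Fzd5, Fzd3 and Fzd4 depended on the probe set or on single pools. The brighter probe set of Fzd5 was higher in the atria by 0.42 (limma, adjusted p = 9.2e-04), whereas a dim one, under the low end in both tissues, gave -0.21 (limma, adjusted p = 0.063). Fzd3, under the low end in both tissues, was called higher (limma, adjusted p = 0.019) but not without atrial replicate 3 (limma, adjusted p = 0.058) or ventricular replicate 2 (limma, adjusted p = 0.052). For Fzd4, the brighter probe set gave -0.20 (limma, adjusted p = 0.093) and the dimmer one 0.25 (limma, adjusted p = 0.021), opposite in sign. Without atrial replicate 4, the highest atrial pool at 7.55, the brighter Fzd4 probe set passed as lower in the atria (-0.28, limma, adjusted p = 0.0059). Fzd6 did not pass (-0.10, limma, adjusted p = 0.41). In all, 4 of 7 measured Frizzled genes, Fzd3 among them, were higher and 1 was lower, where 22.5% of all genes were called in each direction.

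The co-receptors differed from each other in outcome. Lrp5 read 5.39, 5.30, 4.97 and 5.05 in the atrial pools, against 5.69, 5.93, 5.94 and 6.08 in the ventricular pools. It was lower in every atrial pool than in any ventricular pool. The difference was -0.73 ± 0.11 (SE), or 1.66 fold lower (limma, adjusted p = 3.9e-04). A second Lrp5 probe set read 4.48, 4.13, 4.37 and 4.33 in the atrial pools, against 5.17, 5.20, 5.17 and 5.28 in the ventricular pools. This one, with a difference of -0.88 (limma, adjusted p = 9.6e-06), passed the thresholds of the study. Lrp6 did not pass, at 5.47 ± 0.16 in atria and 5.41 ± 0.19 in ventricles (SD, n = 4 pools each) with overlapping pools (0.06, limma, adjusted p = 0.68). Whether Lrp5 and Lrp6 differ from each other in their response to the chamber was not tested.

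Ryk, a receptor of the tyrosine kinase family whose kinase domain is inactive and which binds Wnt ligands, differed by 0.23 with its brighter probe set (limma, adjusted p = 0.057). The second probe set read 7.59, 7.72, 7.70 and 7.45 in the atrial pools, against 7.05, 6.99, 6.84 and 6.94 in the ventricular pools. Neither probe set overlapped between the tissues, and the second passed at 0.66, or 1.58 fold higher (limma, adjusted p = 7.5e-05).

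**Figure D4:**
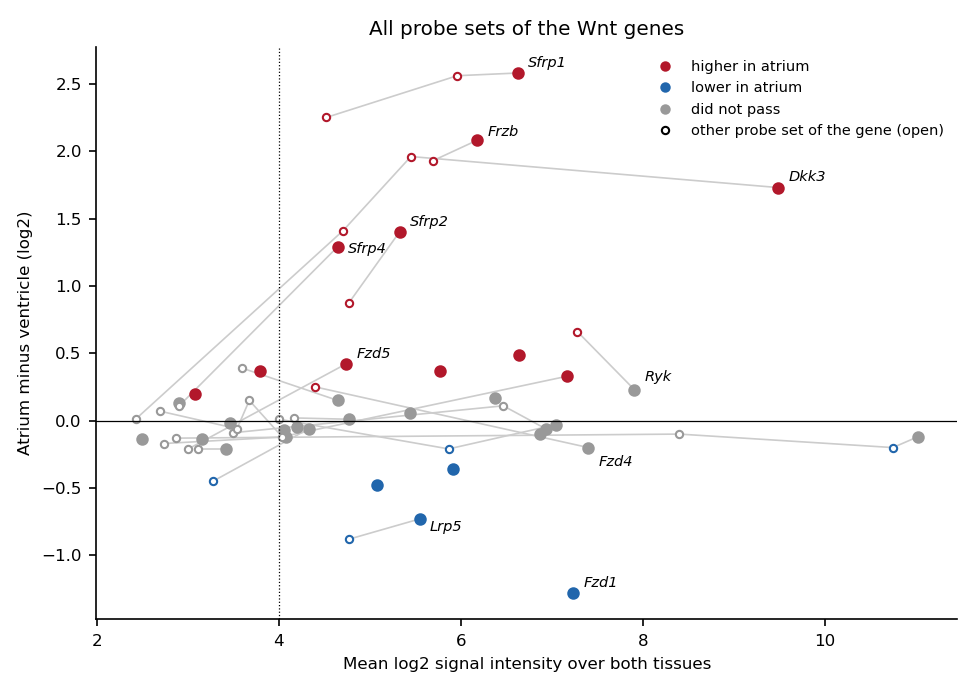
Atrium minus ventricle difference of all 62 probe sets of the module against their mean log2 intensity over both tissues, with lines joining probe sets of 1 gene and a dotted line at the low end of 4. Probe sets of Sfrp1 (2.25 to 2.58) and Frzb (1.93 and 2.08) lie together, whereas those of Fzd4 and Fzd5 fall on both sides of 0.

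The ligands lay mostly close to the low end, and their differences were small. Wnt5b, a ligand of the non-canonical branch, read 4.94, 4.75, 4.56 and 5.11 in the atrial pools, against 5.34, 5.18, 5.40 and 5.35 in the ventricular pools. It was lower in the atria without overlap, with a difference of -0.48 ± 0.11 (SE) or 1.39 fold (limma, adjusted p = 0.0056). Wnt5a, the related non-canonical ligand, was called higher by 0.37 (limma, adjusted p = 0.0061), but both means were under the low end, at 3.98 in atria and 3.61 in ventricles.

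The other 4 ligands did not pass with their main probe set. Wnt2 differed by 0.15 (limma, adjusted p = 0.17), Wnt6 by -0.12 (limma, adjusted p = 0.30), Wnt11 by -0.06 (limma, adjusted p = 0.54) and Wnt4, under the low end in both tissues, by 0.13 (limma, adjusted p = 0.11). A second probe set of Wnt11, under the low end in both tissues, was called lower (-0.45, limma, adjusted p = 0.0068). Second probe sets of Wnt2 (0.39, limma, adjusted p = 0.054) and Wnt6 (-0.17, limma, adjusted p = 0.18), also under it in both tissues, did not pass. The mean of the Wnt2 probe sets was called higher (0.27, limma, adjusted p = 0.0061). Porcn, the enzyme that acylates Wnt ligands, read 4.78 ± 0.13 in atria and 4.77 ± 0.11 in ventricles (SD, n = 4 pools each), a difference of 0.01 (limma, adjusted p = 0.96).

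Most of the cytoplasmic members did not pass. The exception was Gsk3b, a kinase of the destruction complex, which read 5.79, 5.71, 5.75 and 5.67 in the atrial pools, against 6.07, 6.25, 5.95 and 6.09 in the ventricular pools. It was lower in the atria without overlap, with a difference of -0.36 ± 0.07 (SE) or 1.28 fold (limma, adjusted p = 0.0024). Ctnnb1, β-catenin itself, read 10.96 ± 0.03 in atria and 11.08 ± 0.04 in ventricles (SD, n = 4 pools each). The pools did not overlap, but the difference of -0.12 did not pass (limma, adjusted p = 0.12). Another Ctnnb1 probe set was called lower (-0.20, limma, adjusted p = 0.044), while the remaining ones (-0.10 and -0.13) did not pass. The main Ctnnb1 probe set was called lower by SAM (FDR 0.018) and by a trended and robust limma fit (adjusted p = 0.019). The mean of the Ctnnb1 probe sets was called lower as well (-0.14, limma, adjusted p = 0.044).

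The scaffold Axin1 (0.17, limma, adjusted p = 0.055) and Axin2, a scaffold that is itself a target of the pathway (-0.07, limma, adjusted p = 0.55), did not pass. Neither did Apc, the other scaffold of the complex (-0.03, limma, adjusted p = 0.78), although 1 of its 3 probe sets was called lower (-0.21, limma, adjusted p = 0.030). The Dishevelled proteins, which act just below the receptors, did not pass either, with -0.06 for Dvl1 (limma, adjusted p = 0.48) and -0.14 for Dvl2 (limma, adjusted p = 0.12), the second under the low end in both tissues.

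Of the nuclear members, Tcf7l2, a transcription factor that partners β-catenin, read 7.35, 7.37, 7.48 and 7.13 in the atrial pools, against 6.96, 7.01, 7.0 and 7.06 in the ventricular pools. It was higher by 0.33 ± 0.08 (SE), or 1.25 fold (limma, adjusted p = 0.0068). Its 4 other probe sets, all with an atrial mean under the low end, did not pass. Lef1, a factor of the same family, was under the low end in both tissues and did not pass (-0.21, limma, adjusted p = 0.071).

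The stretch of 250 bases before the annotated start was available for 28 of the 40 members, from RefSeq on build GRCr8. It is shown for Frzb and Sfrp2, which were higher in the atria, and Fzd1, which was lower. Capitals mark a match to the core that Tcf and Lef factors recognize, searched as CTTTGA or CTTTGT on both strands; these motifs share their first 5 bases and cannot match at the same place. The TATA box core TATAAA was searched as well.
Frzb, chr3:85772097-85772346, minus strand: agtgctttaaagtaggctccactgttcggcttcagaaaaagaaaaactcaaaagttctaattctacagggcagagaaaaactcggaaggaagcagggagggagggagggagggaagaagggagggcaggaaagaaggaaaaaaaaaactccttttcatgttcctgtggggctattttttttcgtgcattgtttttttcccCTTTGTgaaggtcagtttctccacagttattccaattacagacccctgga
Sfrp2, chr2:171387286-171387535, plus strand: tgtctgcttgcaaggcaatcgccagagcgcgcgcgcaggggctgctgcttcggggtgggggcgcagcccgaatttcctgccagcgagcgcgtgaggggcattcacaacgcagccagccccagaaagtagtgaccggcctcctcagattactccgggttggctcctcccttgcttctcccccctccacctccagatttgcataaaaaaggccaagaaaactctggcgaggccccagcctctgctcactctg
Fzd1, chr4:30264824-30265073, plus strand: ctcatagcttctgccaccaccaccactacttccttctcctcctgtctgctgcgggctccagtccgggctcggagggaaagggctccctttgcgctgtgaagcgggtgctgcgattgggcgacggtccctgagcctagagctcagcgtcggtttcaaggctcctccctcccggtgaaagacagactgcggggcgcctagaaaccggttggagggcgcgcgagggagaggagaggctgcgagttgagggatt
The Frzb window held 1 match, CTTTGT, 50 bases before the start, and had a GC content of 43.6%. The windows of Sfrp2 (62.4% GC) and Fzd1 (63.6% GC) held 0 matches to any of the motifs. Either Tcf and Lef core was present in 27.2% of 27457 windows of the same length and in 6 of the 28 member windows (21.4%), and TATAAA in 13.1% of all windows. A match describes the letters and is not evidence of binding.

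The rest of the pathway was read from a list of 71 further genes, of which 55 were measured. Of these, 11 were higher, 15 were lower and 29 did not pass, which is 20% higher and 27.3% lower, near the 22.5% of all genes in each direction. The median difference was -0.07. At the thresholds of the study 1 gene of the list was higher and 2 were lower.

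Wls, the carrier that brings Wnt ligands to the cell surface, read 8.98, 9.16, 9.20 and 8.88 in the atrial pools, against 7.71, 7.93, 7.77 and 7.96 in the ventricular pools. All atrial pools were above all ventricular pools, and the difference was 1.22 ± 0.09 (SE), or 2.32 fold higher (limma, adjusted p = 2.4e-06). The 7 other ligands in the list had 0 calls by limma, while 4 were lower at an unadjusted p under 0.05 and 4 by the SAM test. Cthrc1, a secreted protein that has been linked to Frizzled and Ror receptors, read 5.39, 6.19, 6.16 and 6.96 in the atrial pools, against 4.56, 5.18, 4.81 and 4.72 in the ventricular pools. It was higher by 1.36 ± 0.27 (SE) or 2.57 fold (limma, adjusted p = 0.0022), with atrial replicate 4 the highest and replicate 1 the lowest of the atria. Ptk7, a receptor-like protein of planar cell polarity, was higher by 0.79 (limma, adjusted p = 2.1e-04), and the Groucho co-repressor Tle4 by 0.70 (limma, adjusted p = 1.7e-04).

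Lower in the atria was Lgr6, a receptor for R-spondins, which amplify Wnt signals. It read 5.88, 4.63, 5.09 and 5.55 in the atrial pools, against 6.91, 7.07, 7.06 and 7.21 in the ventricular pools. Atrial replicates 1 and 4 were nearer to the ventricles than replicates 2 and 3. In replicates 1 and 4 the mean of the ventricular muscle markers was also higher, mainly through Myl2 and Myl3. The part of that in the Lgr6 value was not tested. The difference was -1.77 ± 0.22 (SE), or 3.42 fold lower (limma, adjusted p = 9.3e-05). Lgr4, which also binds R-spondins, went the other way, higher by 0.48 (limma, adjusted p = 0.0011).

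Tcf7, a further factor of the Tcf and Lef family, read 3.70, 3.72, 3.33 and 3.55 in the atrial pools, against 4.63, 4.76, 4.66 and 4.76 in the ventricular pools, so that the atria were under the low end. It was lower in the atria by at least 2.19 fold (limma, adjusted p = 3.9e-06). Apc2, read by a probe set type that can also bind related transcripts, was lower (-0.57, limma, adjusted p = 1.8e-05), as was Ctnnbip1, which binds β-catenin and keeps it from Tcf factors (-0.56, limma, adjusted p = 2.8e-04). Cytoplasmic components, the longest of the further lists, had the most lower calls, with 8 lower and 2 higher of 16 and a median difference of -0.19. This is 50% lower and 12.5% higher, against 22.5% of all genes in each direction. Of the 7 cytoplasmic members of the module, 1 was lower (14.3%) and 0 were higher.

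**Figure D5:**
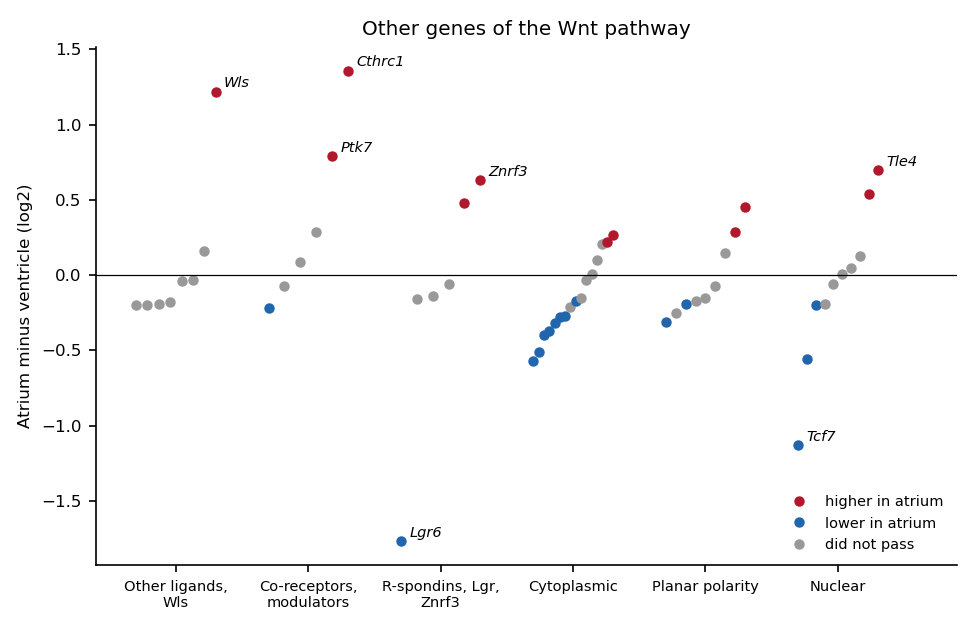
Atrium minus ventricle difference of 55 further genes of the pathway, by list, with genes called higher in red, called lower in blue and those that did not pass in grey. Wls (1.22) and Cthrc1 (1.36) lie highest, Lgr6 (-1.77) and Tcf7 (-1.13) lowest, and most cytoplasmic genes lie below 0.

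Genes known as targets of canonical signalling were called in both directions, at shares not far from the 22.5% of all genes in each. Of 16 listed, 13 were measured, with 2 higher, 4 lower and 7 that did not pass (15.4% higher and 30.8% lower), and a median difference of -0.07. The lists overlap: Axin2 and Lef1 are also members, and Tcf7, Nkd1, Lgr5, Znrf3 and Apcdd1 were also counted among the further genes. Ccn5, a matricellular protein also known as a Wnt-induced gene, read 6.37, 6.36, 6.55 and 5.96 in the atrial pools, against 4.48, 3.99, 3.99 and 3.72 in the ventricular pools. It was 4.80 fold higher in the atria, a difference of 2.26 ± 0.16 (SE) (limma, adjusted p = 1.7e-06). The ubiquitin ligase Znrf3, which removes Frizzled receptors from the cell surface, was higher by 0.63 (limma, adjusted p = 6.6e-04).

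The lower targets were Tcf7, already given, and Ccnd1, cyclin D1, which read 8.30, 7.75, 7.74 and 8.22 in the atrial pools, against 9.29, 9.02, 9.04 and 8.92 in the ventricular pools. Ccnd1 was 2.09 fold lower, a difference of -1.06 ± 0.14 (SE) (limma, adjusted p = 1.4e-04), again with atrial replicates 1 and 4 nearer to the ventricles. Nkd1, an inhibitor that binds Dishevelled (-0.32, limma, adjusted p = 0.0040), and the transcription factor Myc (-0.22, limma, adjusted p = 0.037) were lower by less. Axin2, Lef1 and Lgr5, targets that are often used as readouts of the canonical branch, did not pass. Lef1 and Lgr5 were under the low end in both tissues, and Axin2 lay just above it, at 4.02 in atria and 4.10 in ventricles.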

How the data were processed

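RNA of 4 atrial and 4 ventricular pools, 10 µg each, was measured on 8 arrays. The deposited values are log2 signal intensities that the authors made with RMA, a multi-array procedure that adjusts background, gives the arrays 1 common distribution and summarizes each probe set, so that uniform shifts between tissues are removed. The version is not given in the sources used here.

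Values were used as deposited. Atria were compared with ventricles by limma 3.58.1 in R 4.3.3, without a pairing, with Benjamini-Hochberg adjustment over 31042 probe sets. This took the place of the SAM test of the study, which was run as an alternative. Of the probe sets, 20826 carry 1 gene symbol, 436 several and 9780 none in the platform annotation; gene IDs of 20758 were found in the RefSeq table and 0 symbols changed. Probe sets of several genes named nothing here. Plots were made in Python 3.11.15 with matplotlib 3.10.9.

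The members, gene lists and tests were chosen with earlier results of these data known. Each measured member was named; pool values were given for members past the thresholds of the study and, beyond that rule, for others the text turns on. Of the further pathway and target lists, the 4 largest called differences in each direction were named, with Lgr4 and the uncalled targets added after their values were seen.

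On simulated data of 31042 probe sets, limma called 19 of 50 changed by 1.3 fold, 41 of 50 by 1.5 fold, 48 of 50 by 2 fold and 50 of 50 by 4 fold, and 5 of 30842 unchanged. In the data themselves, far more probe sets were called, 5789 higher and 6245 lower. The adjustment was therefore stricter in the simulation, and these shares do not give the recovery in the data. With 4 arrays per tissue, the precision is limited by their number.

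Alternatives were the SAM statistic (70 permutations), a trended and robust limma fit, a replicate block, median centring, cyclic loess, omission of the dimmest 40% of probe sets, other choices of probe set, other fold criteria and omission of arrays.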

Additional observations from a re-analysis of the deposited data

Results flagged for a closer look

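In 4 of 68 groups of pools tested (34 genes in each tissue), 1 pool stood apart from the other 3 by Dixon's ratio of gap to range at its critical value for 4 samples; chance flags about 1 in 20 groups, which is 3.4 here. Wnt5a was 4.10 in atrial replicate 1, against 3.93 to 3.95 in the other atrial pools (ratio 0.883). Fzd2 was 6.14 in atrial replicate 1, against 5.88 to 5.91 in the other atrial pools (ratio 0.887). Dvl1 was 7.05 in ventricular replicate 2, against 6.92 to 6.94 in the other ventricular pools (ratio 0.845). Axin1 was 6.21 in ventricular replicate 4, against 6.30 to 6.32 in the other ventricular pools (ratio 0.85).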

How the results depend on the processing

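Over 553 combinations of a member and an alternative, 516 kept direction and side of the threshold, 28 gained a call, 7 lost it and 2 reversed, and 19 of 34 members never changed; values that did not pass in either setting were counted as kept whatever their sign. Reversals came from the dimmest probe set, with 0.25 for Fzd4 and -0.21 for Fzd5. With the dimmest probe set the antagonists called higher were 3, and members at the thresholds of the study 1 higher and 2 lower. Sfrp4 and Dkk3 were lost there, and Tcf7l2 too (0.07). The mean of all probe sets gave 12 members higher and 7 lower, 7 of them outside the antagonists, and Fzd5 (0.11, limma, adjusted p = 0.1) and Tcf7l2 (0.07, limma, adjusted p = 0.3) lost their calls. SAM, at an FDR of 5%, gave 9 members lower (8 outside the antagonists, 1 antagonist), 25 further pathway genes lower, 5 members higher at the thresholds of the study (Sfrp1, Frzb, Dkk3, Sfrp2 and Sfrp4) and 9756 probe sets lower, against 6245 with limma. Beyond the limma calls, SAM at an FDR of 5% called Wnt4, Ryk and Axin1 higher and Fzd4, Dkk2, Dvl2, Ctnnb1 and Lef1 lower. A fold of at least 3 left 0 members lower at the thresholds of the study. The cause of these shifts was not tested.

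With 1 array left out in turn, members called higher were 10 to 13 and lower 4 to 6, antagonists higher 5, further pathway genes higher 11 and lower 11 to 19, and members at the thresholds of the study 2 to 3 higher and 1 lower. Without atrial replicate 4, Fzd4, Ryk, Axin1 and Lef1 gained a call. Without atrial replicates 1 and 4 together, chosen after the data were seen, 12 members were higher and 5 lower.

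Atrial and ventricular pools share replicate numbers in the labels. The deviations of same-numbered pools from their tissue means correlated at 0.134, 0.155, -0.148 and -0.188. With only 4 such values of mixed sign, a pairing by number is neither shown nor excluded. Of the 4 atrial pools, 2 correlated best with their own number, while atrial replicate 4 did so with ventricular replicate 3 (0.278) and atrial replicate 3 with ventricular replicate 4 (0.225). This is a hint from the data and not from the design, and no other pairing was fitted. With the replicate block, 11 members were higher and 4 lower, and 2 members were higher at the thresholds of the study instead of 3. Probe sets of several genes named no member or further pathway gene, so keeping them changed nothing. Omission of the dimmest 40% of probe sets left 25 of 34 members and 40 of 55 further genes to test. The 7 members under the low end in both tissues (Wnt4, Wnt5a, Fzd3, Wif1, Dkk2, Dvl2 and Lef1) were among those left out.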
